A study of Homo sapiens with 12 samples.

Results

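The genes described here were the 39 protein-coding genes of the chromosome 4q35 end, of 58735 genes in the tables and 19951 protein-coding genes. A gene was a member where its start in GENCODE 29 (GRCh38) lay beyond a boundary on chromosome 4 placed between the start of DCTD at 182890060 and that of WWC2 at 183099293, through to the end of the chromosome. The members ran over 7.09 Mb from WWC2 to DUX4. The interval was chosen from the fold changes of knockout over wild type in the non-directional libraries, so its values in those libraries are given as a description and no test is drawn from them. The rule took the run from WWC2 to ZFP42 to be lowered as one. Of the 23 tested members in that run, however, 20 were called lower, ING2 and CCDC110 were not called, and ZFP42 itself was higher in the knockout. Over all 13778 genes tested, 25.9% were called lower and 25.5% higher.

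The study compared HAP1 cells, a near-haploid human line that the labels class as chronic myelogenous leukemia, with a derivative lacking SETDB1, the histone H3 methyltransferase that deposits a repressive mark. All cells were grown in IMDM with serum and antibiotics. Total RNA of wild type and knockout was carried through a non-directional kit or a directional kit that keeps RNA strand, with 3 biological replicates in each of the 4 groups. Whether the knockout line was 1 clone was not stated in the labels, so a difference between genotypes cannot be told apart from a difference between 2 lines.

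SETDB1 was first checked. With the non-directional kit it had 651, 543 and 519 wild-type counts against 118, 106 and 118 knockout counts, a log2 fold change of -2.39. With the directional kit it had 12, 17 and 7 against 6, 4 and 11, and the genotypes overlapped, so the check rests on the non-directional kit. Gene counts per library ranged from 8921959 to 10199215 with the non-directional kit and from 532021 to 676691 with the directional kit. The smallest abundance, taken as 3 counts, was then 0.294 to 0.336 and 4.43 to 5.64 counts per 1000000 gene counts (CPM), for counting error only. Pairs of non-directional knockout libraries differed by no more than sampling noise, with a chi-square per degree of freedom of 0.956 to 0.991. Wild-type pairs gave 1.03 to 2.00. Repeats of 1 knockout sample would also differ by sampling noise only, so the 3 libraries count as separate samples on their titles alone. With the 3 summed and counted as 1, the median log2 fold change of the members was -0.70, given with no test. Of 16 blood-cell markers, 6 were at 0 in every non-directional wild-type library and 8 in every knockout library, the pan-leukocyte gene PTPRC and the myeloid genes SPI1 and MPO being at or near 0. Others were expressed, with wild-type means of 21.1 CPM for RUNX1, 18.8 for KIT, 18.3 for MYB, 16.1 for TAL1 and 13.1 for ITGA2B. The summed level of these markers was 89.8 to 93.1 CPM in wild-type and 75.6 to 84.6 CPM in knockout libraries, and 1 marker each was called lower (TAL1, log2 fold change -2.32) and higher (CD38, 0.92).

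The distal band of 4q is gene-poor in places and is known for its subtelomeric D4Z4 repeats, each of which carries a copy of the DUX4 homeobox gene, a factor of the early embryo that is silent in most adult tissue. FRG1 and FRG2 lie beside these repeats. Proximal to them lie ZFP42 (also called REX1), a zinc finger gene of pluripotent cells, the TRIM-like genes TRIML1 and TRIML2, and the giant protocadherin FAT1. The rest of the band holds housekeeping genes of mitochondria, centromeres and vesicle traffic, beside liver genes of the coagulation contact pathway.

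Upstream sequences of 250 bases, ending just before the RefSeq start (GRCh38.p14), matched 36 of the 39 members. Those of 4 members are given below as examples of lowered, raised and uncalled members: HELT (chr4:185018240-185018489, + strand) and FAT1 (chr4:186726697-186726946, - strand), which were lower, ZFP42 (chr4:187995521-187995770, + strand), which was higher, and TRIML2 (chr4:188109604-188109853, - strand), which was not called. They are printed 5′ to 3′ on the strand of the gene, with each CG dinucleotide in capitals.
HELT: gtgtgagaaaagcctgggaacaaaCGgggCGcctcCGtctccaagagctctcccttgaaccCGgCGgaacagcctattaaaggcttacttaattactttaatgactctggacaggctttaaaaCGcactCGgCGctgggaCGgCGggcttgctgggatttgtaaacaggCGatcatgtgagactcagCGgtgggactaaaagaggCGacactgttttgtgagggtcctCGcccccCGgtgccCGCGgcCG
FAT1: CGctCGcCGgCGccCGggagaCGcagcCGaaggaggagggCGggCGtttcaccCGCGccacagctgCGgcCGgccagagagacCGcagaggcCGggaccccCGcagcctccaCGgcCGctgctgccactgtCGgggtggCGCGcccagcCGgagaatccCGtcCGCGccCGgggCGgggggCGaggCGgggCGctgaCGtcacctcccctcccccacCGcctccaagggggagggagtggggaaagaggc
ZFP42: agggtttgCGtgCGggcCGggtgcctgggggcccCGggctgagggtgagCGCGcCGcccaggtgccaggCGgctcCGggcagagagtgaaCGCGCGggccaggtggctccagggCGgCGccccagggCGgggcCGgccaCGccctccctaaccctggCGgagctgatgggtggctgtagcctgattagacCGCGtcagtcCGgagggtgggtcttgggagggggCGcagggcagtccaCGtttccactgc
TRIML2: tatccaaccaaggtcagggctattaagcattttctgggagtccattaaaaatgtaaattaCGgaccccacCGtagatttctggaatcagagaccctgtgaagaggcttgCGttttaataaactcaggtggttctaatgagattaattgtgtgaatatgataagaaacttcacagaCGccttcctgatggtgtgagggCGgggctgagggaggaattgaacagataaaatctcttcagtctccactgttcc

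The CG count was 18 for HELT, 32 for FAT1, 23 for ZFP42 and 5 for TRIML2. The median was 27 CG (range 5 to 41) for the 23 matched members whose expression was tested and 5 CG (range 0 to 29) for the 13 matched members that were too low to test. All 35116 upstream stretches in the RefSeq table had a median of 11 CG. Across the 23 tested members, CG count and log2 fold change had a Spearman rho of -0.38, given as a description. The GC-box core GGGCGG, searched on both strands, was in 15 of the 23 tested members, in 5 of the 13 untested ones and in 42.6% of all upstream stretches. It was found for FAT1, ZFP42 and TRIML2 but not for HELT, so its letters were upstream of lowered and raised members alike. The core CCAAT was in 6 of 23 and 5 of 13 (32.0% of all stretches). The TATA core TATAAA was in 1 tested member, CDKN2AIP, and 1 untested member, FRG2 (10.7% of all).

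In the non-directional libraries most of the expressed members were lower in the knockout. Of 39 members, 25 passed the filter on low counts, and 21 of these also reached the filter's level of 1.02 CPM in all 3 libraries of both groups. HELT passed through the wild type alone, LRP2BP and ANKRD37 reached the level in 1 knockout library, and CCDC110 in 2. At an adjusted p of 0.05 in edgeR's quasi-likelihood test, 21 of the 25 were called lower, 1 (ZFP42) was called higher and 3 (ING2, CCDC110 and TRIML2) were not called. Over all 13778 genes tested, 25.9% were called lower and 25.5% higher. Every knockout library was below every wild-type library in 21 members, against 27% of all genes tested. Because the interval was set from this contrast, nothing is read from these counts.

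The size of the fall was similar over much of the interval. The median log2 fold change of the 25 tested members was -0.71 (quartiles -0.91 and -0.52), a knockout level of 0.610 times the wild type, whereas the median over all genes tested was -0.0012. Of the 21 lowered members, 14 had a log2 fold change between -1 and -0.5, 6 lay below -1 and 1, STOX2, lay above -0.5. The summed level of all members was 988 ± 19.7 CPM in wild-type and 628 ± 9.17 CPM in knockout libraries (SD, n = 3 each), a ratio of 0.636. The libraries did not overlap, with 965 to 1000.4 CPM against 618 to 636 CPM. In bulk RNA, fewer cells expressing a gene and less RNA per cell cannot be told apart.

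**Figure D1:**
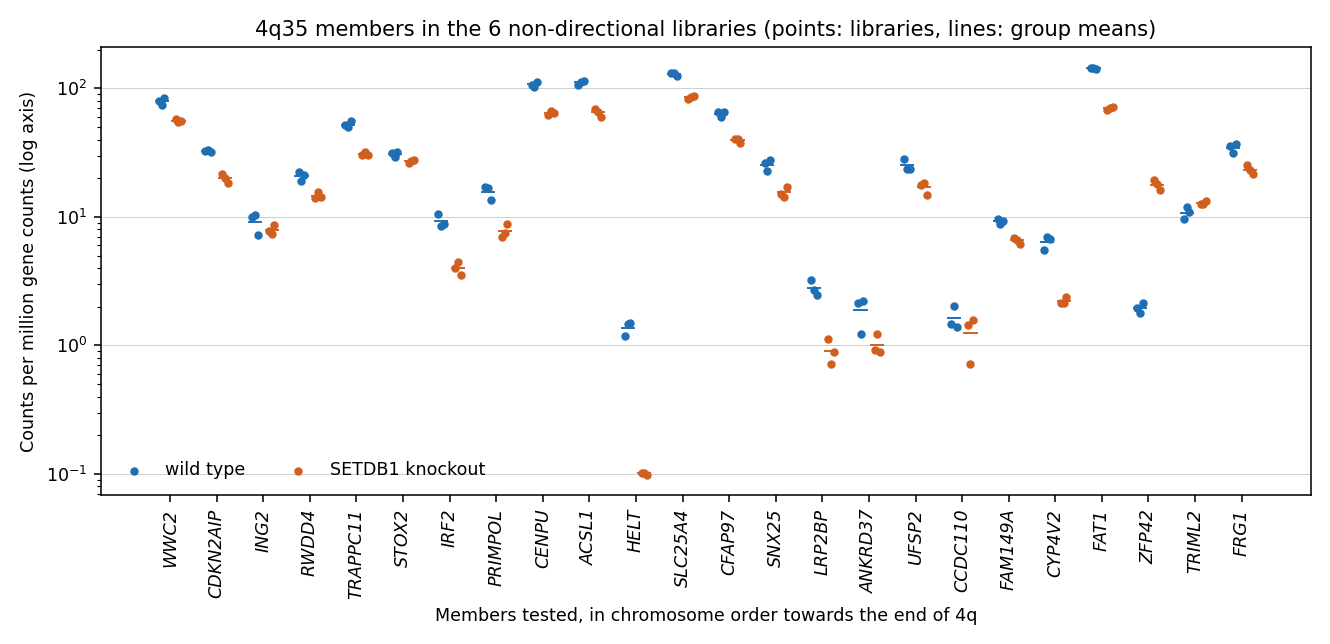
Level of 24 tested members in each of the 6 non-directional libraries (vertical log axis, counts per 1000000 gene counts; members in chromosome order; points, libraries; short lines, group means of 3). Knockout points lie below the wild-type points in 20 of the members shown, above them for ZFP42 and TRIML2, and among them for ING2 and CCDC110.

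CENPU, a centromere protein, had 1085, 921 and 1060 wild-type counts against 608, 651 and 655 knockout counts. Per length, that was 148 ± 7.12 transcripts per 1000000 (TPM) against 89.1 ± 2.90 TPM (SD, n = 3 each), and the log2 fold change was -0.75 ± 0.047 (SE). The wild-type libraries of CENPU all stood well above the knockout ones. SLC25A4, the ADP/ATP carrier of the inner mitochondrial membrane, followed at 108 ± 3.00 and 72.0 ± 1.65 TPM, with 1334, 1172 and 1170 counts against 812, 843 and 881 (log2 fold change -0.60). ACSL1, which activates long-chain fatty acids, had 1083, 1008 and 1074 counts against 679, 643 and 611, or 72.0 ± 2.74 against 42.3 ± 3.03 TPM (log2 fold change -0.78). Neither of these 2 metabolic genes overlapped between genotypes.

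PRIMPOL, a primase-polymerase that restarts stalled replication, had 174, 149 and 127 counts against 68, 74 and 89 (log2 fold change -1.03 ± 0.12, SE). CDKN2AIP, which encodes a partner of the ARF tumor suppressor, had 335, 294 and 300 counts against 209, 198 and 187 (log2 fold change -0.71). ING2, a chromatin reader of a histone deacetylase complex, had 101, 92 and 68 counts against 76, 72 and 88, and its groups overlapped (log2 fold change -0.21 ± 0.14, SE), although it was called lower without wild-type replicate 3.

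IRF2, a transcription factor that limits interferon responses, was among the members with the lowest knockout level relative to wild type. Its 108, 76 and 82 wild-type counts stood against 39, 44 and 36 in the knockout, a level of 0.428 times the wild type. HELT, a basic helix-loop-helix repressor of developing neurons, had 12, 13 and 14 counts with SETDB1 intact and 1 count in each knockout library. The ratio of summed CPM was 0.0738, with an exact 95% counting interval of 0.0146 to 0.232. This interval covers counting error only, and HELT passed the filter through the wild type alone. STOX2, a winged-helix gene, was at the other extreme of the lowered members, with 319, 260 and 301 counts against 256, 268 and 281. Its log2 fold change was -0.20 ± 0.073 (SE), and its call was lost in DESeq2 and without any 1 of wild-type replicates 1 and 3 and knockout replicate 1.

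TRAPPC11, a subunit of a complex that tethers vesicles, had 526, 443 and 522 counts against 296, 316 and 306 (log2 fold change -0.77). RWDD4, whose start lay 42 bases from that of TRAPPC11 on the opposite strand, had 226, 171 and 198 counts against 136, 152 and 146 (log2 fold change -0.52). SNX25, a sorting nexin, had 266, 202 and 259 counts against 148, 140 and 175 (log2 fold change -0.72). The 3 genes showed no overlap between genotypes. FAT1, a large cadherin of the cell surface, had the highest wild-type level of the interval by CPM, 143 ± 2.13, against 69.8 ± 1.70 in knockout libraries (SD, n = 3 each). Its counts were 1476, 1291 and 1325 against 664, 688 and 724, a log2 fold change of -1.05 ± 0.043 (SE). WWC2, a scaffold of the Hippo pathway and the first member, had 816, 664 and 788 counts against 565, 534 and 563 (log2 fold change -0.52).

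CYP4V2, a fatty acid hydroxylase, had 56, 62 and 63 wild-type counts against 21, 21 and 24 knockout counts (log2 fold change -1.52 ± 0.20, SE). LRP2BP, named for its binding to megalin, had 33, 24 and 23 counts against 11, 7 and 9 (log2 fold change -1.62 ± 0.30, SE). These 2 genes showed no overlap between genotypes at under 10 CPM in either. ANKRD37, an ankyrin-repeat gene whose start lay 122 bases from that of LRP2BP on the opposite strand, had 22, 11 and 21 counts against 9, 12 and 9. Its log2 fold change was -0.91 ± 0.32 (SE). Its call was lost in DESeq2 and without any 1 of wild-type replicates 1 and 3 and knockout replicate 3. CCDC110, a coiled-coil gene, had 15, 18 and 13 counts against 14, 7 and 16, with groups that overlapped.

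CFAP97, a gene linked to cilia, had 662, 530 and 614 counts against 395, 397 and 380 (log2 fold change -0.69). UFSP2, the protease that matures the ubiquitin-like modifier UFM1, had 286, 212 and 223 counts against 174, 180 and 150 (log2 fold change -0.58). FAM149A had 98, 78 and 88 counts against 67, 65 and 63 (log2 fold change -0.50). In each of these 3 the knockout libraries lay below the wild-type ones. FRG1, a gene beside the D4Z4 repeats, was the most distal member tested, with 363, 280 and 344 counts against 247, 226 and 220 (log2 fold change -0.58). FRG1 has near-identical copies elsewhere in the genome, so its reads could be split between them and its level is uncertain.

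ZFP42 went the other way. It had 20, 16 and 20 wild-type counts against 189, 176 and 165 knockout counts, or 3.01 ± 0.266 against 27.5 ± 2.37 TPM (SD, n = 3 each), a level 8.98 times that of the wild type (log2 fold change 3.17 ± 0.16, SE). No wild-type library came near a knockout library. TRIML2, 0.0862 Mb further on, had 98, 107 and 102 counts against 124, 123 and 135, all knockout libraries being above the wild type by CPM (log2 fold change 0.25 ± 0.11, SE), and it was not called, save without wild-type replicate 2. These 2 genes lay in the stretch with the widest gaps of the interval, 1.27 Mb beyond FAT1 and 1.83 Mb before FRG1. FRG1, on the far side, was lower again.

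Of the 14 members not tested, 7 were at 0 in all 6 non-directional libraries. They were the claudins CLDN22 and CLDN24, AC018709.1, the melatonin receptor MTNR1A, TRIML1, FRG2 and DUX4. FRG2 and DUX4 have near-identical copies, so reads that did not align uniquely would be missing from their counts. The other 7 had at most 10 counts in a library, that of C4orf47. Highest counts were 6 for F11 (coagulation factor XI), 4 for the double-stranded RNA sensor TLR3, 3 for SORBS2 and 1 each for ENPP6, PDLIM3 and KLKB1 (plasma prekallikrein). TLR3 had 4, 1 and 4 wild-type counts against 1, 0 and 1 knockout counts, and F11 had 6, 1 and 2 against 0, 1 and 0, too few to be read as a difference at this depth.

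Position, level and length bore little relation to the fold changes. Over the 25 tested members, the Spearman rho of the log2 fold change was 0.055 with position, 0.048 with wild-type TPM and -0.12 with exon length. These values are descriptions over genes of the same 6 libraries. The 14 tested members on the plus strand had a median of -0.66 on the log2 scale and the 11 on the minus strand one of -0.75. Among the 15 tested members whose exons overlap no exon of another gene, 12 were called lower, 1 was called higher, and the median log2 fold change was -0.69. The shares over all genes tested were 25.9% lower and 25.5% higher. In 2 head-to-head pairs both genes moved to the same side, with -0.52 for RWDD4 and -0.77 for TRAPPC11, and -1.62 for LRP2BP and -0.91 for ANKRD37.

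The boundary of the interval did not mark where the lower values began. The last tested protein-coding gene before it, DCTD (dCMP deaminase, 0.181 Mb before WWC2), had 722, 713 and 684 counts against 494, 476 and 470, a log2 fold change of -0.63. WWC2, just inside, had -0.52. TENM3, a teneurin of neuronal contacts, lay before DCTD and had 686, 625 and 631 counts against 509, 556 and 528 (log2 fold change -0.35). AGA, a lysosomal enzyme 4.70 Mb before TENM3, had 298, 284 and 290 counts against 210, 226 and 224 (log2 fold change -0.47). Over the 33 protein-coding genes from SPOCK3 to DCTD, 26 were tested, with a median log2 fold change of -0.083, 8 called lower and 5 called higher (1 higher in DESeq2, 2 without wild-type replicate 1 or knockout replicate 1 and 3 without knockout replicate 3). All 713 other protein-coding genes of chromosome 4, these 33 included, had a median of -0.014 over the 438 tested, with 135 called lower and 114 called higher. The share called lower was 30.8% in both sets, and that called higher was 19.2% and 26.0%. Among all genes tested these shares were 25.9% and 25.5%, so nothing is read from these counts. In 17 windows of 10 Mb before position 180000000 that held at least 10 tested genes, the medians ran from -0.22 to 0.11.

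**Figure D2:**
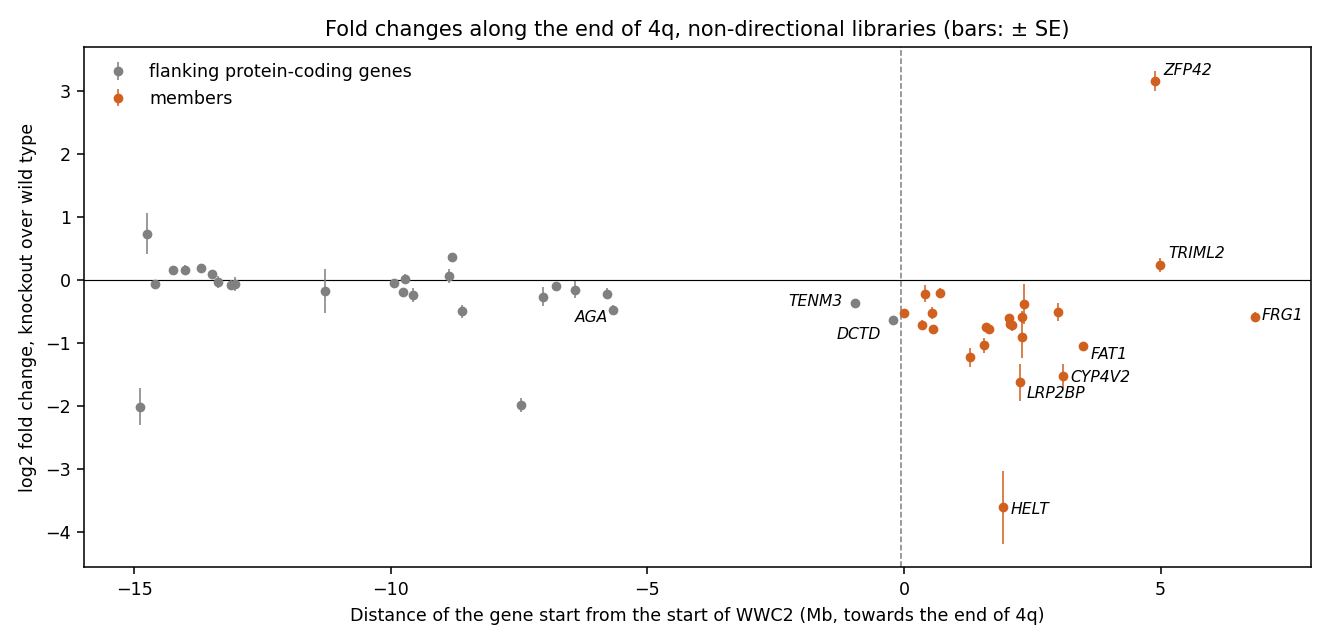
Log2 fold change (vertical axis, knockout over wild type, non-directional libraries; bars, SE) against the distance of each gene start from the start of WWC2 in Mb (horizontal axis). Members (orange) lie mostly between -1 and -0.5 to the right of the dashed boundary, ZFP42 stands at 3.17, and DCTD at -0.63 lies just to the left among the flanking genes (grey).

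Other chromosome ends were set beside the interval. Ends of equal width, 7.20 Mb, held at least 15 tested protein-coding genes at 38 ends, leaving out the short arms of acrocentric chromosomes. At the 4q end the median log2 fold change was -0.71, followed by -0.41 at the 1q end and -0.26 at the Xp end, and the highest median was 0.19 at 19q. The share of tested genes called lower was 84% at 4q and between 8.06% and 82.1% (1q) at the other ends. The 1q end is part of a longer stretch of chromosome 1, from NBPF12 to PGBD2, in which 430 of 517 tested genes were called lower with a median of -0.47, and from ZFAND5 to TRIM32 on chromosome 9, 115 of 151 were called higher with a median of 0.40. Among all genes tested, 25.9% were called lower and 25.5% higher. These 2 stretches were also picked from earlier results of the same contrast, so the order of the ends carries no test.

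**Figure D3:**
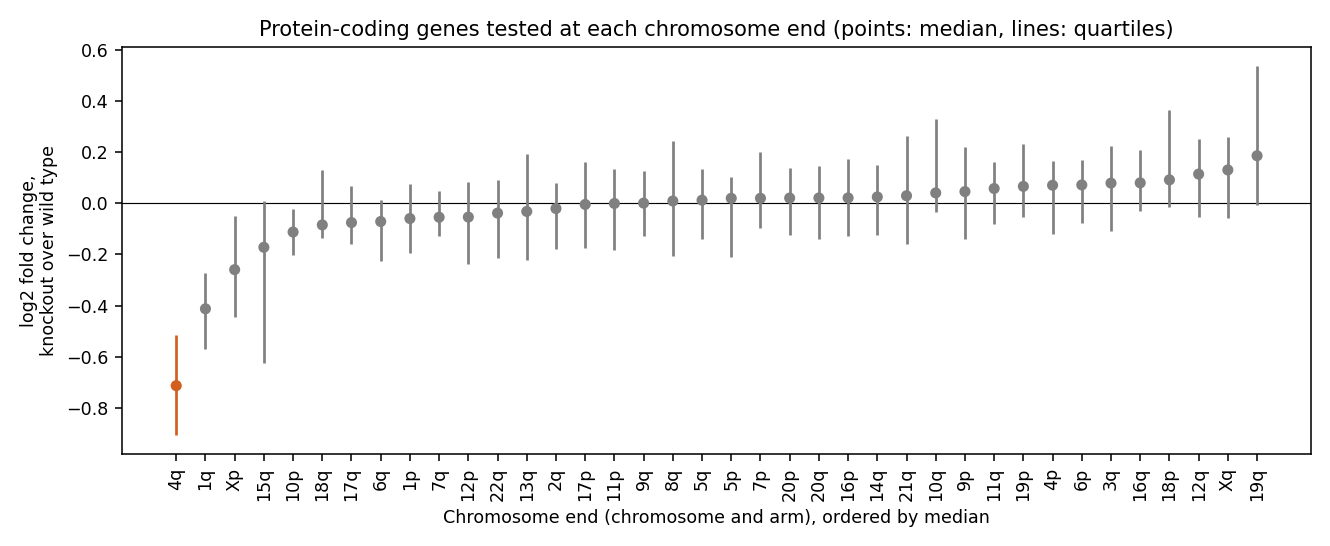
Median log2 fold change of tested protein-coding genes (vertical axis, knockout over wild type, non-directional libraries) at each of 38 chromosome ends of 7.20 Mb, ordered by median (points, medians; lines, lower to upper quartile). The 4q end (orange) has the lowest median at -0.71, the 1q end follows at -0.41, and 19q is highest at 0.19.

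Genes related to the members, but lying outside the interval or tied to their function, had mixed values in the same libraries. Of 64 paralogs of members, 43 were tested, 13 called lower and 6 higher, with a median log2 fold change of -0.055. The paralogs were chosen by name, and some, such as FAT4 and PDLIM5, lie on chromosome 4 itself. Among those called, CLDN6 (0.071 CPM in wild type, 23.9 in knockout) and ENPP2 (1.89 and 0.133 CPM) passed the filter through one genotype alone and were under 3 counts on average in the other, so no fold is given for them, and SNX19 went from 2.06 to 13.6 CPM. Of 22 pluripotency factors, a list without ZFP42, 16 were tested, 12 called higher and 4 lower, with a median of 0.46, against the backgrounds of 25.5% and 25.9% over all genes. L1TD1 was called higher, as was the RNA-binding LIN28A (7.79 to 41.0 CPM). L1TD1 and ESRRB, both counted among the 12 called higher, had wild-type means under the filter's level of 1.02 CPM. They passed the filter through the knockout libraries, so no fold is given for them. GDF3 was called lower (1.45 to 0.199 CPM, the knockout level being under 3 counts). POU5F1 and SOX2 were called lower at log2 fold changes of -0.11 and -0.13. Of 26 genes that DUX4 is known to activate, 3 were tested, with KDM4E (0.68) and PNMA6A (1.30) higher and CCNA1 (-1.22) lower. DUX4 itself was at 0, and its leading targets ZSCAN4 and LEUTX were at 0 in both groups.

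Non-coding genes and L1 elements of the interval were sparse. Of 116 non-coding genes, 36 had a count in any non-directional library and 1 was tested. That was AC093909.6, a transcript of unchecked status, with 19, 12 and 14 wild-type counts against 26, 21 and 23 knockout counts (log2 fold change 0.57 ± 0.27, SE), and it was not called. DUX4L9, a DUX4 pseudogene, had 0 wild-type counts against 3, 0 and 1 knockout counts, near the smallest abundance the depth can show. Of the long L1 elements, the LINE-1 retrotransposons, 9 lay in the interval and none had enough reads to be tested. Their reads summed to 33 over the wild-type libraries and 85 over the knockout libraries, or 1.15 ± 0.209 and 2.87 ± 0.783 reads per 1000000 gene counts (SD, n = 3 each). Over all 6437 L1 loci the same sums were 2974 and 4231. An L1PA2 element within FAM149A (186110394 to 186116420, counting base not stated) had 8, 6 and 1 reads against 21, 15 and 10. An L1HS element (189137086 to 189143104) between TRIML2 and FRG1 had 0 reads in all wild-type libraries and 6, 6 and 2 in the knockout. No test was run on single L1 loci of the interval.

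The directional libraries had not been used to choose the interval, and they allowed a test, but over few genes. They too compare HAP1 wild type with the SETDB1 knockout, so a difference between the lines would recur in them. Their titles number the replicates as with the other kit and do not say whether the same RNA was used. The directional libraries may thus measure again the RNA from which the interval was chosen. Most of their reads, 94.6%, fell in no gene. In the wild type, the 17 tested members without an exon on the opposite strand had 97 directional counts against 20734 non-directional counts, a level per listed read of 0.480% of the non-directional one. The 8 members with such an exon had 406 counts against 7412, or 5.62%. CLDN22, at 0 in all non-directional libraries, had 27, 15 and 22 directional counts in the wild type, and its exon lies across an exon of WWC2. Directional counts of a gene with such an exon may thus be mostly reads of its partner on the other strand. They cannot be assigned to either gene, and they are given under the name of the row that holds them.

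Of 155 genes of the interval, 7 were tested in the directional libraries, 6 of them members. The row of PRIMPOL, which lies across an exon of CENPU, had 62, 54 and 62 wild-type counts against 27, 35 and 26 knockout counts. This was 99.1 ± 18.4 CPM against 50.6 ± 9.47 CPM (SD, n = 3 each), and no knockout library reached a wild-type one. The log2 fold change was -0.96 ± 0.19 (SE), with an adjusted p of 3.6e-05 in edgeR's quasi-likelihood test with Benjamini-Hochberg adjustment over 4745 genes. Over 12 alternatives that adjusted p ran from 1.66e-05 to 0.0065. PRIMPOL was the 1 gene of the 7 called lower, and 0 were called higher in edgeR or DESeq2, against 8.54% of all genes called lower and 7.67% called higher. At an unadjusted p under 0.05 in edgeR, 3 were lower (PRIMPOL, CLDN22 and CENPU) and 0 higher. No share over all genes at that level is given here, and PRIMPOL and CENPU overlap each other, so nothing is read from this count. In 2 of the 7, PRIMPOL and UFSP2, each knockout library was below each wild-type library, against 15.1% of all genes.

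The other members had wider errors. CENPU, across PRIMPOL, had 16, 16 and 8 counts against 7, 3 and 10 (log2 fold change -0.93, 95% interval -1.71 to -0.15, edgeR adjusted p 0.105). CLDN22 had 27, 15 and 22 against 18, 7 and 12 (log2 fold change -0.73, 95% interval -1.32 to -0.13, edgeR adjusted p 0.091). Both groups overlapped, and neither passed the threshold. CLDN22 passed it without wild-type replicate 2 (adjusted p 0.0227) or without knockout replicate 1 (0.0307), and CENPU without knockout replicate 3 (0.0475), all in edgeR. UFSP2 had 18, 14 and 9 counts against 9, 8 and 9 (log2 fold change -0.59, edgeR adjusted p 0.295). LRP2BP, at -0.41, and ANKRD37, at -0.26, overlapped between genotypes (edgeR adjusted p 0.489 and 0.518). AC093909.6, with no partner on the other strand, had 21, 21 and 17 counts against 25, 26 and 22 (log2 fold change 0.36, 95% interval -0.12 to 0.85, edgeR adjusted p 0.363).

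**Figure D4:**
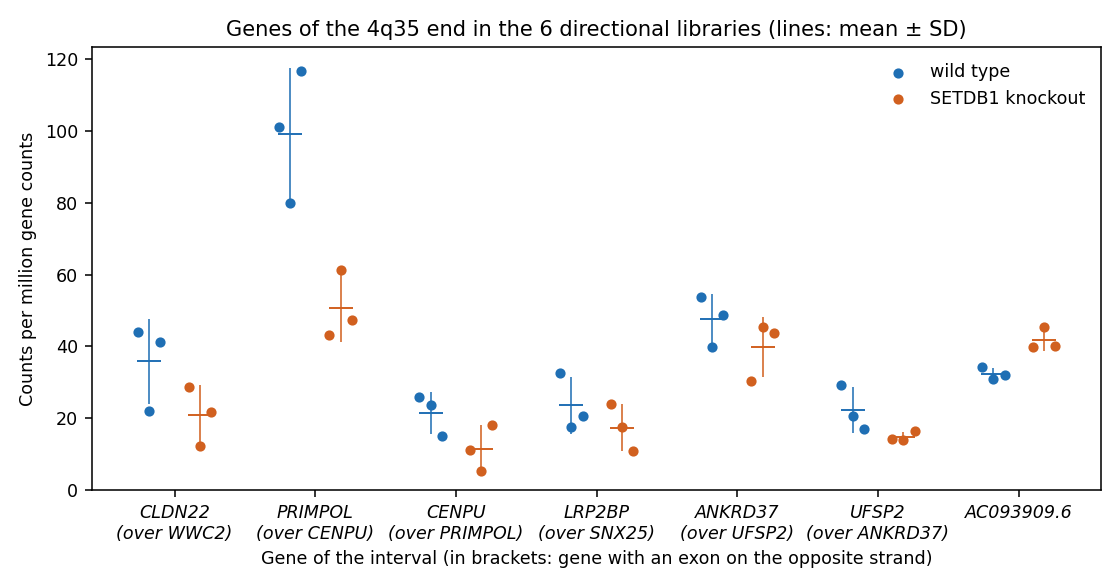
Level of the 7 tested genes of the interval in each directional library (vertical axis, counts per 1000000 gene counts; points, libraries; lines, mean and SD of 3; in brackets, the gene with an exon on the opposite strand). The PRIMPOL row, which may hold reads of CENPU, falls from 99.1 to 50.6 CPM with no overlap. CLDN22, CENPU, LRP2BP and ANKRD37 overlap, and AC093909.6 is higher in each knockout library.

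Summed over all 155 genes of the interval, the directional level was 406, 315 and 357 CPM in wild-type and 243, 252 and 248 CPM in knockout libraries. No knockout library reached a wild-type one. The means were 359 ± 45.5 and 248 ± 4.71 CPM (SD, n = 3 each), a ratio of 0.693. A two-sided exact permutation test gave p = 0.1, the smallest that 3 against 3 libraries can give, so that this design could not pass 0.05. Without PRIMPOL the log2 ratio went from -0.53 to -0.39, and from WWC2 to ZFP42 alone it was -0.68.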

How the data were processed

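RNA of HAP1 wild type and SETDB1 knockout was sequenced in 12 libraries. Per the submitters' processing notes, STAR 2.6.0a, HTSeq 0.11.1 and the hg38 build were used. The authors deposited raw read counts per gene, and the strand setting was not given in the sources used here. Closing lines for reads outside genes were left out of totals (19.6 to 19.7% of listed reads, non-directional, and 94.7 to 94.8%, directional). The authors also deposited a normalized signal per L1 locus. All its values (100%) were whole multiples of 1 read within 0.01, so reads were recovered. Of 816 loci tested, limma 3.58.1 on log2(signal + 1) called 232 and the count test 281.

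Each kit was fitted alone over all genes that passed filterByExpr (minimum count 10, total 15) with TMM and edgeR 4.0.16 in R 4.3.3, tested on simulated data. SEs, which are approximate, were the log2 fold change over the square root of F. TPM used exon lengths of GENCODE 29. p-values measure the spread between these samples only. The members and lists were chosen with earlier results of these data known. Tested members were named, save 1 that counts in the totals but is not reported here, with the 3 tested genes before the boundary, the genes tested in the directional libraries and the 3 most changed genes of each list. Same-numbered replicates had correlations of -0.032 to 0.018 and were not treated as pairs. Alternatives were other scalings, filters, DESeq2 1.42.0, a replicate block, other boundaries and leaving out each library.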

Additional observations from a re-analysis of the deposited data

How the results depend on the processing

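Of 261 alternatives to the values and counts above, 246 were classed as the same. A count was the same within 1.5 times the main count, so single calls could still cross the threshold. A median or an L1 sum was the same within the spread between libraries. The directional sum had to keep its direction, and SETDB1 its direction and side of the threshold. Replicate numbers were not a pairing. With a replicate block, 21 members were called lower and 1 higher, the median was -0.71, and 1 interval gene was called lower with the directional kit; the block changed no other call past 1.5 times. Leaving out one library at a time gave 19 to 21 lower and 1 to 2 higher members (TRIML2, without wild-type replicate 2), 1 to 2 lower interval genes in the directional libraries, 2 to 4 higher flanking genes and 1 to 2 higher blood-cell markers. Requiring log2 fold changes of 1 or more in size left 6 lower members and 0 directional genes, and setting aside members that overlap another exon left 12, of 15 tested. DESeq2 called 19 members lower, without STOX2 and ANKRD37, and gave 1 higher flanking gene and 10 higher genes in the chromosome 1 stretch; the cause was not tested. Member fold changes reversed in 0 of 250 recomputed values and moved by at least the SE of the member in 5, all with a library left out. The small share of reads counted in genes limits the directional libraries, where 4.43 to 5.64 CPM was the smallest abundance. Depth limits the 14 members too low to test.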
